A study of Homo sapiens with 12 samples.

Results

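The expression of 9 genes of the complement system and the acute phase response was measured in gefitinib-tolerant clones of PC9, a human lung adenocarcinoma cell line: CFD, CFB, C3, CFI, C1R, C1S, SAA1, SAA2 and LCN2. They were chosen by name from measured values, because CFD and SAA1 were higher in the tolerant clones than in the sensitive clone, and because their relatives belong to the same systems. They are 9 of 20045 genes with a probe on the array and were read by 16 of its 47229 probes. The difference between tolerant clones and the sensitive clone is therefore given for them as a description, with no test.

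The series compared 6 clones, each grown from a single sorted PC9 cell, by gene expression on 12 Illumina bead arrays, 2 arrays per clone. Of these, D6, E1, E2, E3 and E6 carry the label tolerant for gefitinib, an inhibitor of the EGF receptor kinase, and clone B7 carries the label sensitive. All 12 samples carry the same treatment text, gefitinib at 0.4 to 2 µM for 14 days, while the design text also names plates that received DMSO. It is not clear from them if B7 ever met gefitinib, or if RNA of tolerant clones was taken during exposure, so response and exposure cannot be told apart. Each clone descends from 1 cell, and B7 is the only sensitive one, so tolerance also cannot be told apart from what is peculiar to B7. No label says that the 2 arrays of a clone came from separate cultures. Tests among clones therefore weigh differences against array-to-array spread alone, and that spread may be technical.

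Paired arrays of the same clone correlated at 0.995 to 0.997 across genes, which are not independent replicates. Upper-quartile scanner brightness (the 75th percentile) averaged 80.2 (D6), 94.5 (E1), 118 (E2), 104 (E3) and 97.9 (E6) intensity units, against 131 in B7. Epithelial markers were present: EPCAM, KRT7, KRT8, KRT18, KRT19 and CDH1 were detected on all arrays, and 8 of 9 lung epithelium markers were measurable. The lung lineage factor NKX2-1 was not detected, and the alveolar cell products NAPSA and SFTPB were detected on 5 and 3 of 10 tolerant arrays and on 0 of 2 B7 arrays. The summed level of the epithelial markers was 39554 to 58198 in the tolerant clones, lowest in E2, against 39056 in B7. EPCAM went the other way, at a mean log2 level of 13.39 in the tolerant clones against 14.00 in B7.

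Complement is a cascade of plasma proteases that cleave C3 and tag surfaces for removal. In its alternative pathway the protease factor D (CFD) cleaves factor B (CFB) bound to C3b, in its classical pathway C1r (C1R) activates C1s (C1S), and factor I (CFI) degrades C3b. Acute phase proteins such as the serum amyloids A (SAA1, SAA2) and lipocalin-2 (LCN2), a siderophore-binding protein, are made by liver and by epithelia under cytokines of the interleukin-1 and interleukin-6 families, which act through the factors NF-kB, STAT3 and C/EBP, while interferons act through STAT factors and the ISRE element.

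Promoters were available for 5 of the 9 genes from RefSeq (GRCh38.p14), and the 250 bases before the start of CFB, LCN2 and CFD are shown because these genes had very different tolerant-to-B7 differences and different motif matches. They are written on the gene's own strand, the + strand for all of them, in lower case, and the capitals mark matches to the motifs searched. CFB covers chr6:31945845-31946094, LCN2 covers chr9:128149203-128149452 and CFD covers chr19:859414-859663.
CFB: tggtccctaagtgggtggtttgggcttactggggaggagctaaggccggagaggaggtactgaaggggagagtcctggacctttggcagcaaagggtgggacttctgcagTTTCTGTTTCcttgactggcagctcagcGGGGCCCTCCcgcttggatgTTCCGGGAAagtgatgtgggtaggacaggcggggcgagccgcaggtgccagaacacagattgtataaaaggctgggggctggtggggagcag
LCN2: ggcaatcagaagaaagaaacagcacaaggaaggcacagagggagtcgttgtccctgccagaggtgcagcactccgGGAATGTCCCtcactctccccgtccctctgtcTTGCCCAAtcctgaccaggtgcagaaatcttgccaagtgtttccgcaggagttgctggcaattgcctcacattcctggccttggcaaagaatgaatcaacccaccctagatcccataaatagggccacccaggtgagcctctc
CFD: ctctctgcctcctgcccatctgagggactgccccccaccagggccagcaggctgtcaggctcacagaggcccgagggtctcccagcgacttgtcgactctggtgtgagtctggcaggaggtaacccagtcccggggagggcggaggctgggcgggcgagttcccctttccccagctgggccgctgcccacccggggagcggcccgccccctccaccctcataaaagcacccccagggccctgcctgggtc
Both strands were searched for a STAT element (TTCNNNGAA), an ISRE (GAAA, any 2 bases, GAAA), a C/EBP element (TTNNGNAA) and the kappa B consensus of NF-kB. The CFB window held a STAT match at -92 to -84 (TTCCGGGAA), an ISRE match on the reverse strand at -140 to -131 (TTTCTGTTTC) and an NF-kB match at -112 to -103 (GGGGCCCTCC), counted from the gene's start, with no overlap among them. The LCN2 window held an NF-kB match at -175 to -166 (GGAATGTCCC) and a C/EBP match at -143 to -136 (TTGCCCAA), both on the reverse strand. The windows of C1R and CFI, which are not printed, held 2 C/EBP matches each, and none of the 4 motifs was in the CFD window. Among 35116 promoters of this length, 6.57% held the STAT motif, 3.02% the ISRE, 33.2% the C/EBP motif and 9.96% the NF-kB motif. A match is a run of letters and not a measured site.

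CFD, the protease that starts amplification in the alternative pathway, lies at chr19:859664-863641 (GRCh38.p14, as for all genes here) and showed the widest span of the 9 genes. Its normalized log2 level, by probe ILMN_1777190, was 11.79 and 11.75 (D6), 11.93 and 11.91 (E1), 9.49 and 9.34 (E2), 11.56 and 11.57 (E3), and 12.93 and 13.07 (E6), against 5.84 and 6.02 in B7. All 10 tolerant arrays lay far above both B7 arrays, with E6 at the top and E2 set apart at the bottom of the tolerant clones. In B7 the signal was at the edge of detection: 18.5 and 27.1 intensity units, where the limits of the 2 arrays were 24.1 and 23.7. The mean over tolerant clones was 5.61 ± 1.09 log2 units above B7 (SE, 5 clones and 1 clone), a 48.7-fold difference that spread between 11.2-fold in E2 and 135-fold in E6. With no background correction the difference was 7.18, and it was 7.35 in the authors' normalized values, so its size rests on how the dim B7 signal is treated.

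Among the tolerant clones CFD differed by 12-fold between E6 and E2, and the clones differed beyond the spread between arrays (adjusted p = 8.35e-09, limma moderated F test over the 5 tolerant clones, Benjamini-Hochberg over 12250 genes). E2 was 6.26-fold below the mean of the other 4 tolerant clones (log2 difference -2.65 ± 0.07, adjusted p = 4.03e-09), and E6 was 3.57-fold above its other 4 (1.83 ± 0.07, adjusted p = 9.76e-08). E1, D6 and E3, in that order, formed the middle, and neither E1 and D6 nor D6 and E3 differed beyond their spread (adjusted p = 0.227 and 0.110), while E1 and E3 did (0.36, adjusted p = 0.00939). D6 and E1 passed the test as higher than their other 4 (0.29 and 0.48), but those values rest on E2: without it they were -0.39 and -0.19. The D6 call was also lost without 1 D6 array (0.27), with no background correction (0.31) and in the authors' values (0.22).

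CFB, the zymogen that factor D cleaves, lies at chr6:31946095-31952084. Its log2 level (ILMN_1774287) was 12.53 and 12.52 (D6), 12.96 and 13.08 (E1), 11.37 and 11.50 (E2), 12.27 and 12.36 (E3), and 12.78 and 12.77 (E6), against 8.59 and 8.60 in B7. Every tolerant array stood more than 2 log2 units above B7, where the gene was clearly detected on both arrays. The tolerant clones averaged 12.42 ± 0.61 (SD, n = 5 clones) against 8.59 in B7, a difference of 3.82 ± 0.53 (SE) or 14.1-fold. E1 was the highest and E2 the lowest tolerant clone, 3.0-fold apart (adjusted p = 4.96e-07, moderated F test). E2 lay 2.33-fold below the other 4 (-1.22 ± 0.06, adjusted p = 1.06e-07), and E1 lay 1.69-fold above its other 4 (adjusted p = 8.19e-06). In the order E1, E6, D6, E3, E2, only D6 and E3 did not differ as neighbours (adjusted p = 0.0622).

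C3, the central component that every complement pathway cleaves, lies at chr19:6677704-6720650 and showed a small difference. Its brighter probe (ILMN_1762260) read 9.44 and 9.59 (D6), 8.86 and 8.94 (E1), 7.88 and 8.03 (E2), 8.83 and 8.79 (E3), and 9.29 and 9.22 (E6), against 7.81 and 7.84 in B7. E2 was barely above B7, by 0.13 log2 units, while D6 was 1.69 above it. The mean difference was 1.06 ± 0.52 (SE), or 2.09-fold. The dimmer C3 probe (ILMN_1662523), detected on 8 of 10 tolerant and 1 of 2 B7 arrays, gave 0.26 ± 0.27. Both undetected tolerant arrays of that probe were those of E2, so it sets no level for E2 against B7. Within the tolerant clones the brighter probe spanned 2.95-fold (adjusted p = 9.60e-07, moderated F test), with E2 2.24-fold below the other 4 (adjusted p = 2.31e-07) and D6 1.72-fold above them (adjusted p = 1.01e-05). Only E1 and E3 did not differ as neighbours in the order D6, E6, E1, E3, E2 (adjusted p = 0.435).

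CFI, the protease that inactivates C3b, lies at chr4:109730982-109801999 on the reverse strand and was weakly expressed. Its log2 level (ILMN_1727815) was 7.14 and 7.61 (D6), 7.73 and 7.64 (E1), 6.94 and 6.65 (E2), 7.53 and 7.28 (E3), and 7.02 and 6.90 (E6), against 6.51 and 6.50 in B7. The lower E2 array stood just above both B7 arrays, so the groups did not overlap but came close. The mean difference was 0.74 ± 0.34 (SE), 1.67-fold, and it was 1.12 with no background correction and 1.18 in the authors' normalized values. The tolerant clones differed (adjusted p = 0.00204, moderated F test), with E1 above its other 4 by 0.55 (adjusted p = 0.00352) and E2 below by 0.56 (adjusted p = 0.00247), or by 0.42 and not called without 1 E2 array. E6 was also below its other 4 by 0.36 (adjusted p = 0.0439), a call that was lost in 15 of 24 alternative settings, and no neighbours in the order E1, E3, D6, E6, E2 differed beyond their spread, although 5 of the 10 pairs did.

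**Figure D1:**
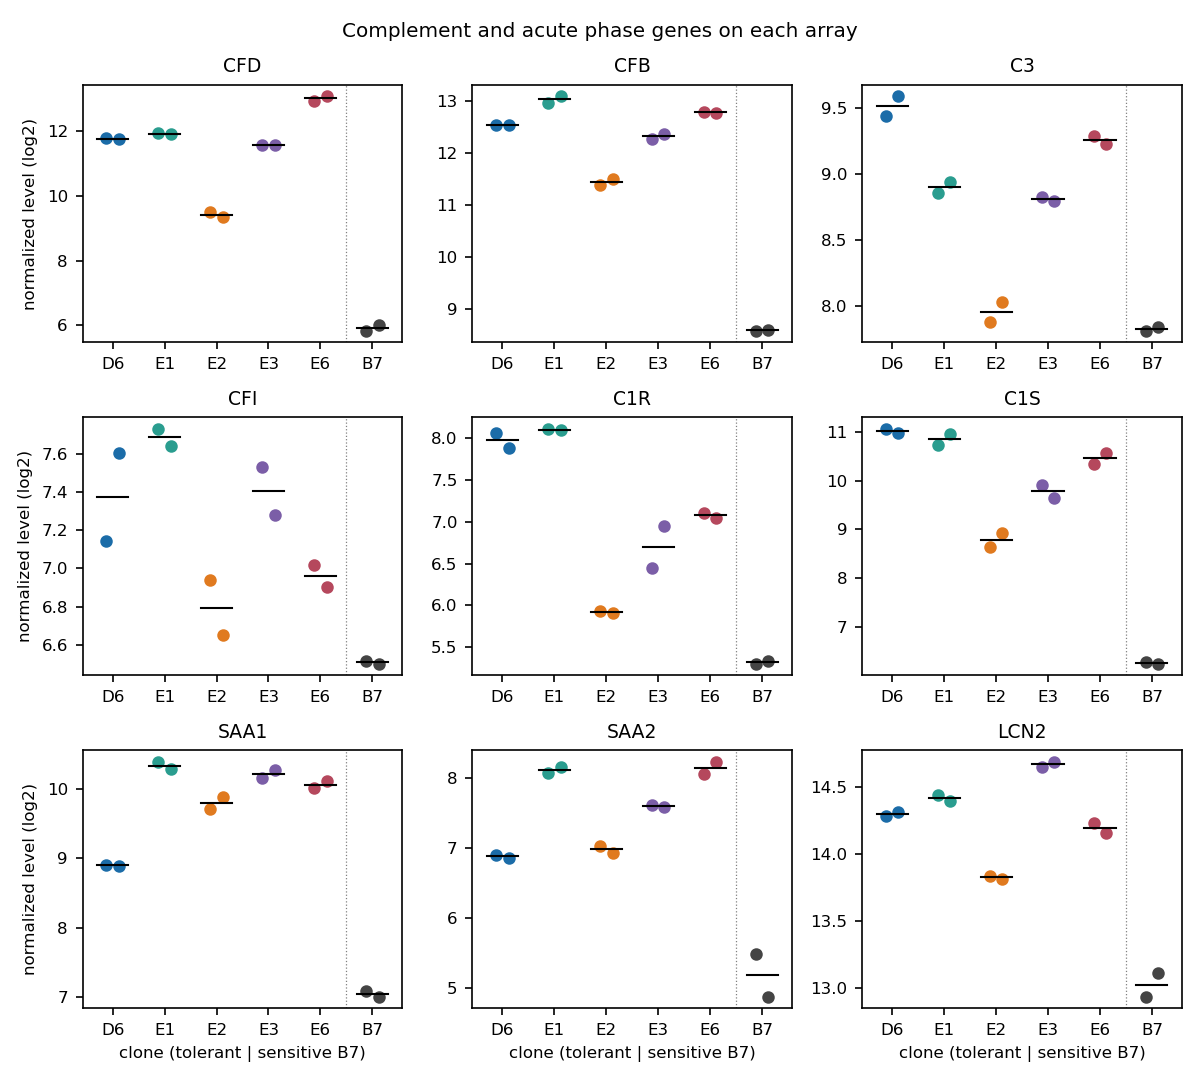
Normalized log2 level of each of the 9 genes by its brightest probe, 1 panel per gene with its own vertical axis. Points are single arrays (2 per clone), bars are clone means, tolerant clones stand left of the dotted line and B7 right of it. E2 is the lowest tolerant clone for CFD, CFB, C3, CFI, C1R, C1S and LCN2, and D6 for SAA1 and SAA2.

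C1R and C1S encode the paired proteases of the C1 complex and lie side by side on chromosome 12, at chr12:7080219-7092445 and chr12:7060718-7071032. The log2 level of C1S (ILMN_1781626) was 11.05 and 10.98 (D6), 10.73 and 10.96 (E1), 8.63 and 8.93 (E2), 9.92 and 9.64 (E3), and 10.35 and 10.57 (E6), against 6.29 and 6.25 in B7. All tolerant arrays were more than 2 log2 units above B7, in which this probe was detected on both arrays. The mean difference was 3.91 ± 0.77 (SE), 15.0-fold, and it was 4.93 with no background correction and 5.12 in the authors' normalized values. A second C1S probe (ILMN_1677603), not detected in B7, gave at least 3.59-fold with the same order of clones from D6 to E2.

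The log2 level of C1R (ILMN_1677198) was 8.06 and 7.89 (D6), 8.11 and 8.09 (E1), 5.93 and 5.91 (E2), 6.44 and 6.95 (E3), and 7.11 and 7.04 (E6), against 5.30 and 5.33 in B7. The probe was below the detection limit on both arrays of E2 and of B7 and above it on the other 8. The mean of the tolerant clones was at least 2.30-fold above B7 (measured means 7.15 and 5.32). For E2, below the limit like B7, no difference from B7 can be given. A second C1R probe (ILMN_1764109) gave at least 1.71-fold with the same order of clones, and the remaining pair of C1R probes was not detected on any array.

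Both C1 proteases differed among the tolerant clones in the same arrangement, with D6 and E1 on top and E2 at the bottom. C1S spanned 4.72-fold (adjusted p = 9.99e-07, moderated F test) and C1R 4.53-fold in measured means (adjusted p = 1.41e-06). E2 was below the other 4 by 3.36-fold for C1S (-1.75 ± 0.11, adjusted p = 3.03e-07) and by at least 2.84-fold for C1R (adjusted p = 1.03e-06). D6 was above its other 4 by 1.05 log2 units for C1S and 1.03 for C1R, and E1 by 0.84 and 1.18, all past the test, while D6 and E1 did not differ from each other in either gene (adjusted p = 0.359 and 0.530). E3 was below its other 4 in both, by 0.50 and 0.57. For E3 the C1S call was lost without D6, without E1 or without 1 E3 array (-0.25 to -0.36), and the C1R call without E1 (-0.29) and in the authors' values (-0.52). The C1S call of E6 as higher (0.35, adjusted p = 0.0261) turned to -0.088 without E2. It was also lost in the authors' values (0.30), with no filter on dim probes (0.35), with the mean over both probes (0.19), and without 1 E6 array or without E3 (0.25 each). Over the 5 tolerant clones the centred profiles of C1R and C1S had a root mean square difference of 0.22 log2 units, a description over 5 points that share arrays.

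SAA1 and SAA2 encode the inducible serum amyloids A, which bind to high density lipoprotein, and stand near each other at chr11:18266264-18269967 and chr11:18238236-18248668. Their transcripts are near-identical, so a probe named for one may also read the other, and the values of each are uncertain to that degree. The brightest SAA1 probe (ILMN_2304512) read 8.90 and 8.89 (D6), 10.39 and 10.29 (E1), 9.71 and 9.88 (E2), 10.16 and 10.27 (E3), and 10.01 and 10.12 (E6), against 7.08 and 7.0 in B7. Here D6, not E2, was the low tolerant clone, still well above B7. The mean difference was 2.82 ± 0.50 (SE), 7.07-fold, and the other SAA1 probes gave 1.99 ± 0.44 (ILMN_1701017) and 1.29 ± 0.41 (ILMN_1808732), each detected on all 10 tolerant arrays and on 1 of 2 B7 arrays, with D6 lowest in both. The mean of the probes gave 2.03.

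The tolerant clones spanned 2.72-fold for SAA1 (adjusted p = 1.55e-06, moderated F test). D6 was 2.31-fold below the other 4 (-1.21 ± 0.07, adjusted p = 6.51e-07), and E2 was not called (-0.08 ± 0.07, adjusted p = 0.345). E1 was above its other 4 by 0.60 (adjusted p = 7.71e-05). E3 (0.44) and E6 (0.25) also passed as higher, but without D6 their values were 0.15 and -0.052, neither of them called. In the order E1, E3, E6, E2, D6, neither E1 and E3 nor E3 and E6 differed beyond their spread (adjusted p = 0.286 and 0.235), while E1 and E6 did (adjusted p = 0.0310).

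The single SAA2 probe (ILMN_1728262) read 6.91 and 6.85 (D6), 8.07 and 8.16 (E1), 7.03 and 6.93 (E2), 7.61 and 7.59 (E3), and 8.06 and 8.23 (E6), against 5.48 and 4.87 in B7. It was detected on all tolerant arrays and on neither B7 array, which put the mean of the tolerant clones at least 3.01-fold above B7 (measured means 7.54 and 5.18). That bound is for the mean and not for each clone. D6 and E2 were both low and did not differ from each other (adjusted p = 0.616), and E6 and E1 were both high and did not differ either (adjusted p = 0.907). D6 was below its other 4 by 0.83 (adjusted p = 5.05e-04) and E2 by 0.70 (adjusted p = 7.80e-04), so that E2 was called low for SAA2 and not for SAA1. That difference between the 2 genes was not tested.

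LCN2, which binds iron-carrying siderophores, lies at chr9:128149453-128153453 and was already bright in the sensitive clone. Its log2 level (ILMN_1692223) was 14.28 and 14.31 (D6), 14.44 and 14.40 (E1), 13.84 and 13.81 (E2), 14.65 and 14.69 (E3), and 14.23 and 14.16 (E6), against 12.93 and 13.11 in B7. The B7 arrays gave 9700 and 10741 intensity units before normalization, far above the detection limit. The mean difference was 1.26 ± 0.30 (SE), 2.39-fold. LCN2 had the narrowest range of the 9 genes among tolerant clones, 1.79-fold (adjusted p = 7.24e-05, moderated F test), with E3 1.40-fold above its other 4 (adjusted p = 3.60e-04) and E2 1.48-fold below (adjusted p = 3.03e-05). E1, D6 and E6, in that order, were not separated as neighbours (adjusted p = 0.293 and 0.363), nor was E1 from E6 (adjusted p = 0.0504).

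**Figure D2:**
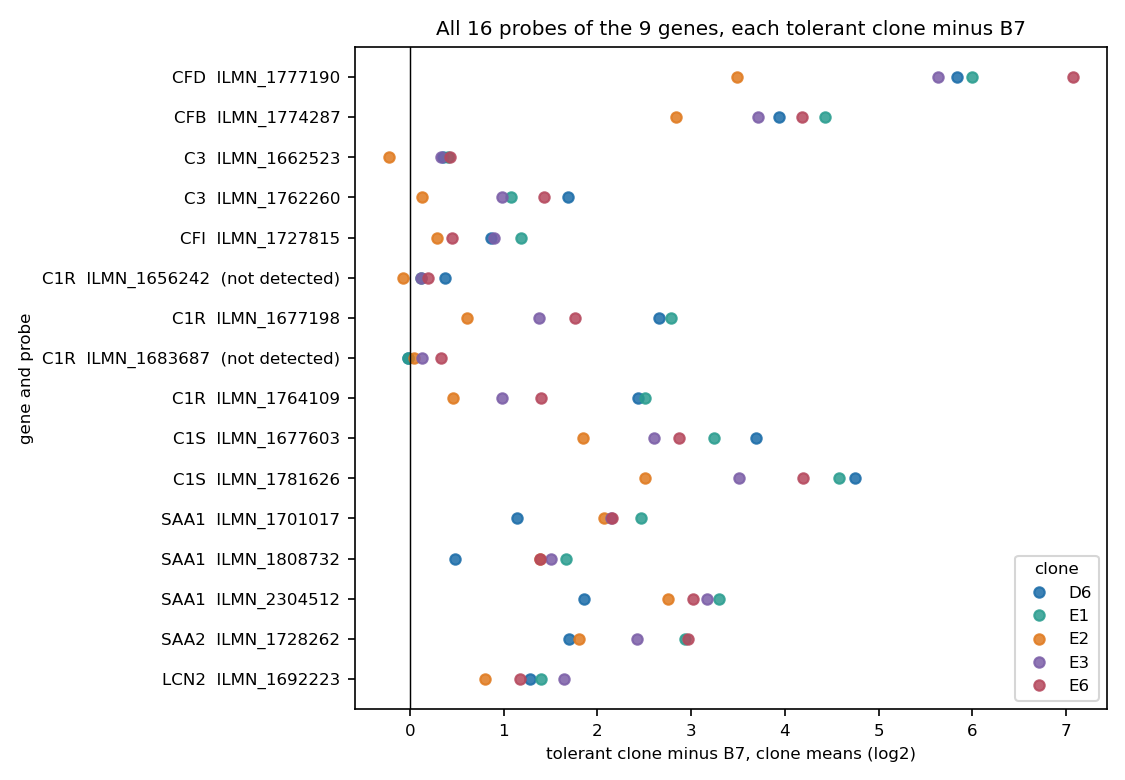
Each tolerant clone minus B7 for all 16 probes of the 9 genes, in log2 units of the clone means. Each colour is 1 clone and the vertical line marks no difference. The E2 points are leftmost for the CFD, CFB, CFI, C1S and LCN2 probes, and the D6 points for all 3 SAA1 probes and SAA2. The C1R probes marked as not detected stayed below the limit on every array.

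Across the 9 genes, all 10 tolerant arrays were above both B7 arrays for 9 of 9, as they were for 20.7% of the 12250 genes tested. Since this contrast chose the genes, nothing is read from that count. For C1R it also ranks E2 arrays against B7 arrays that are all below the detection limit. The median of the 9 differences was 2.37 log2 units as measured, or 1.59 with C1R and SAA2, both below detection in B7, at their lower bound, against 0.00 over all tested genes.

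The tests among tolerant clones do not use the level of B7, but the values of these clones were part of what chose the genes. Whether E2 is also low for other genes that are higher in tolerant clones than in B7 was not tested. Leaving E2 out raised the calls against B7 over all tested genes from 171 higher and 176 lower to 1048 and 1077. Leaving out any other tolerant clone lowered them. Among genes of the related lists below that were called higher, E2 was the lowest tolerant clone for C1RL and IFNGR1, D6 for SAA4, and E3 for IRF1 and NFKBIA. A low E2 is therefore not shown to be particular to the 9 genes. The shares given are over all tested genes. All 9 genes differed among the 5 tolerant clones, and 73.0% of all tested genes did so too, which leaves little to read from the count. E2 was lower than the other 4 tolerant clones for 8 of 9 genes (all but SAA1), and 26.8% of all tested genes were lower there. It was higher for 0 of 9, with 26.4% of all tested genes higher, and its median difference over the 9 was -1.16, against -0.01 over all genes. E1 was higher than its other 4 for 7 of 9 genes (24.0% of all genes) and lower for 0 (22.3%), with C3 and LCN2 not called and a median of 0.60.

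E6 was higher for 6 of 9 genes (16.5% of all genes) and lower for CFI alone (16.4%), with a median of 0.35. Of those 6, CFB and C3 were not called without E2 (0.16 and 0.18), and C1S without E2 and SAA1 without D6 turned below 0. The SAA1 call was also lost without 1 E6 array (0.20) and with no filter on dim probes (0.25). D6 was higher for CFD, C3, C1R and C1S (18.2% of all genes higher) and lower for SAA1 and SAA2 (19.8% lower), while CFB (0.14), CFI (0.16) and LCN2 (0.02) were not called and CFD turned below 0 without E2. E3 was higher for SAA1 and LCN2 (15.5%) and lower for C1R and C1S (16.3%). Of the 10 pairs of tolerant clones, 5 differed for CFI, 7 for LCN2, 8 for CFD, C1R, SAA1 and SAA2, and 9 for CFB, C3 and C1S. By pair, E2 differed from D6 in 8 of 9 genes (51.6% of all genes), from E1 in 9 (54.6%), from E3 in 9 (40.2%) and from E6 in 8 (45.8%). D6 differed from E1 in 4 of 9 (32.1%), from E3 in 6 (34.6%) and from E6 in 7 (34.2%). E1 differed from E3 in 6 (42.8%) and from E6 in 7 (40.1%), and E3 from E6 in 7 (30.3%). The members share arrays and, for C1R with C1S and SAA1 with SAA2, a locus, so they are not independent of each other. E2 also had the brightest tolerant arrays by the scanner's 75th percentile, and the part of array brightness in its low values was not tested.

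**Figure D3:**
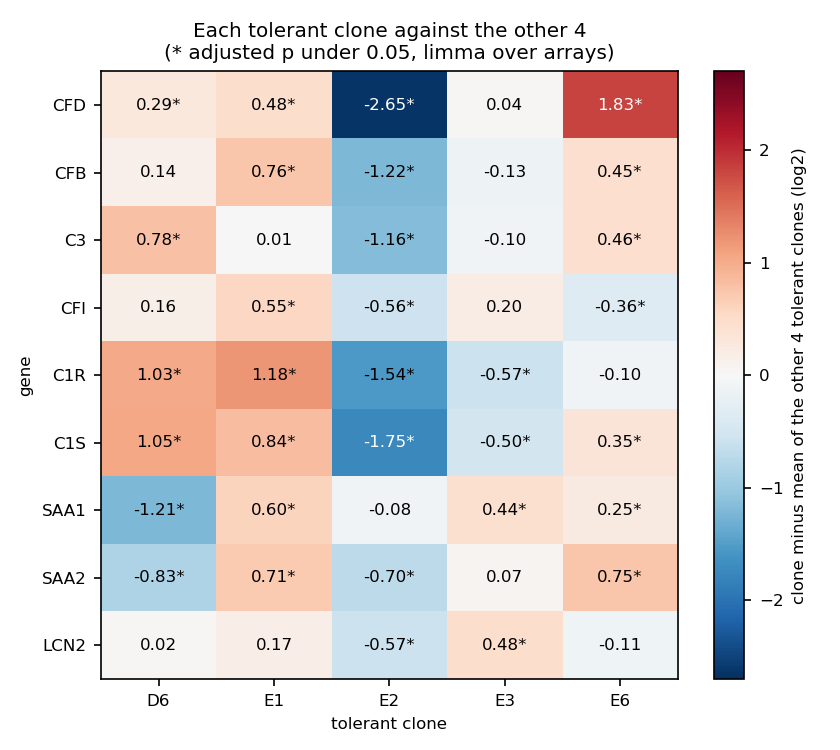
Log2 difference of each tolerant clone (columns) from the mean of the other 4, for each gene (rows), printed in the cell and coloured blue for lower and red for higher. Asterisks mark adjusted p under 0.05 by limma over arrays. The E2 column is negative for all 9 genes, and D6 is positive for the complement genes and negative for SAA1 and SAA2.

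Few other complement genes could be measured on these arrays. Of 44 further complement genes, 14 were tested, 26 had probes that were not detected and 4 had no assigned probe. Against B7, 1 of the 14 rose in the tolerant clones and 0 fell, with 1.40% of all genes called higher and 1.44% lower, and the list's median difference was 0.18 (0.13 with the 2 genes below detection in B7 at their bound, or at no difference where the bound gives no fold). The gene that rose was C1RL, a C1r-like protease, at a clone mean log2 level of 9.65 (D6), 9.37 (E1), 8.50 (E2), 8.86 (E3) and 9.28 (E6), against 6.95 in B7 (2.19 ± 0.41, 4.55-fold, adjusted p = 0.0453, limma on clone means). The call was lost without D6, E1, E3 or E6 (differences of 2.06 to 2.25), without 1 E2 array (2.17), with an offset of 50 in the background correction (1.92) and in the authors' values (2.76), and held without clone E2. The largest differences that were not called were downward: C1QBP (-1.29 ± 0.48, adjusted p = 0.163) and CR2 (-1.13 ± 0.47, adjusted p = 0.194). C5, the substrate of the next cleavage after C3, differed by 0.53 ± 0.33 (adjusted p = 0.361). The membrane inhibitors CD55 and CD59 differed by 0.16 ± 0.39 and 0.33 ± 0.34, and SERPING1, the inhibitor of C1r and C1s, by 0.21 ± 0.18, none of them called. SERPING1 was detected on 8 of 10 tolerant and 1 of 2 B7 arrays, and CR2 on 6 of 10 and 2 of 2. The values of SERPING1, and those of CR2 in tolerant clones, thus lie close to the detection limit. Of the genes for the proteins on which C1s acts, C2 and C4B had undetected probes, and C4A, detected on 2 of 10 tolerant and 1 of 2 B7 arrays, differed by -0.22 ± 0.21 (adjusted p = 0.540). C4A and C4B are near-identical copies, so a probe may read both. C1QBP and CR2 are named for the size of their difference and the other genes beyond C1RL for their roles, all after their values were seen.

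Of 26 further acute phase genes, 9 were tested, 16 had undetected probes and 1 had no assigned probe. SAA4, the constitutive serum amyloid A, was the 1 that rose and 0 fell, beside 1.40% of all genes higher and 1.44% lower. The median of the 9 was 0.25, or 0.03 with the 4 genes below detection in B7 treated in the same way. Its clone means were 8.20 (D6), 9.03 (E1), 8.84 (E2), 9.13 (E3) and 8.60 (E6), against 5.76 in B7, where it was not detected. That placed the mean of the tolerant clones at least 6.99-fold higher (measured difference 3.0 ± 0.35, adjusted p = 0.0128), and the call held in 25 of 25 alternative settings. The liver proteins CRP and HP were not detected, SERPINA1 differed by 0.03 ± 0.19, and LBP, below detection in B7 and on 5 of 10 tolerant arrays, was at least 1.12-fold higher (adjusted p = 0.207, not called). These examples were also picked after their values were seen.

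Of 45 genes of the cytokine signalling that acts on acute phase genes, 35 were tested. In the tolerant clones 3 rose and 3 fell against B7, beside 1.40% of all genes higher and 1.44% lower, and the median difference was 0.30. The genes that fell were ligands. IL1B, interleukin-1 beta, fell by 5.71 ± 0.67 log2 units to 8.03 in tolerant clones, against 13.74 in B7 (adjusted p = 0.0134), and IL1A fell by 4.73 ± 0.42 to 6.80, against 11.53 in B7 (adjusted p = 0.00734). IL11, an interleukin-6 family cytokine, fell by 2.88 ± 0.52 (adjusted p = 0.0411). IFNGR1, a chain of the interferon-gamma receptor, rose by 2.47 ± 0.47 (adjusted p = 0.0466). NFKBIA, the inhibitor of NF-kB, rose by 1.37 ± 0.18 (adjusted p = 0.0169) and IRF1, an interferon-induced transcription factor, by 1.89 ± 0.36 (adjusted p = 0.0483), both named after their values were seen. The calls of IL1A and IL1B held in 25 of 25 alternatives, and those of IL11, IFNGR1, NFKBIA and IRF1 in 20, 18, 23 and 18. IL6 itself differed by 0.71 ± 0.90 (adjusted p = 0.657), and the tolerant clones lay on both sides of B7: 10.45 (D6), 8.49 (E1), 10.36 (E2), 9.95 (E3) and 8.19 (E6), against 8.78 in B7. The ligand LIF (-1.40 ± 0.30, adjusted p = 0.0613), STAT3 (1.43 ± 0.33, adjusted p = 0.0697) and BCL3, a nuclear regulator of NF-kB (1.70 ± 0.37, adjusted p = 0.0617), did not pass the test. IL6, LIF, STAT3 and BCL3 are named after their values were seen.

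Of 9 receptors and partners of SAA and lipocalin-2, 5 were tested, 0 rose and 1 fell, beside 1.40% of all genes higher and 1.44% lower. The median was 0.20, or 0.11 with the 2 genes below detection on one side at their bound. MMP9, a gelatinase that binds lipocalin-2, fell in the tolerant clones (-2.74 ± 0.39, adjusted p = 0.0206). It was detected on 1 of 10 tolerant arrays and 2 of 2 B7 arrays, so the size rests on dim tolerant values: it was -2.04 to -3.88 over the alternative settings. The call was lost without E3 (-2.77) or without E6 (-2.64). TLR4, one of the receptors described for SAA, was detected on 0 of 10 tolerant arrays and 2 of 2 B7 arrays (at least 1.27-fold lower, adjusted p = 0.0773, not called). TLR4 is named after its values were seen.

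**Figure D4:**
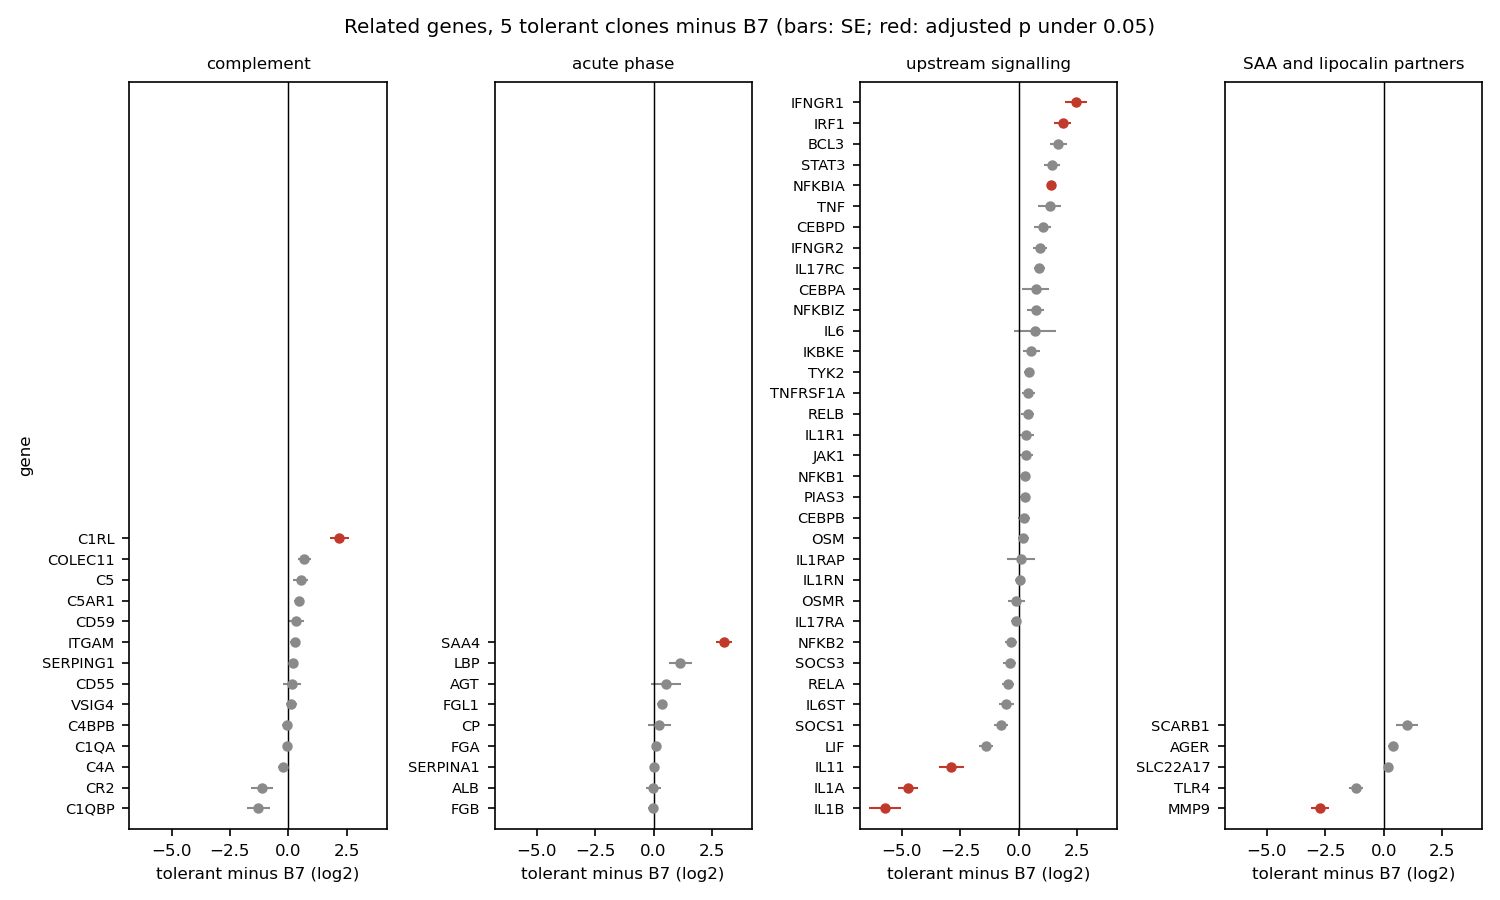
Mean log2 difference of the 5 tolerant clones from B7 for the tested genes of the related lists, with bars for the standard error. Red points passed adjusted p under 0.05 in limma on clone means. C1RL, SAA4, IFNGR1, IRF1 and NFKBIA are red on the higher side, and IL1B, IL1A, IL11 and MMP9 on the lower side.

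Markers of cells that make these proteins in the body were measured beside them. Of 8 leukocyte markers, 5 were tested and none was called. PTPRC, CD163 and CD3E were not detected. CD14, CD68, CSF1R and LYZ were detected on all arrays, with differences from B7 of 1.22 ± 0.45, 0.71 ± 0.73, 1.43 ± 0.58 and 0.42 ± 0.27. MS4A1 was detected on 5 of 10 tolerant arrays and on 0 of 2 B7 arrays. The summed level was 3872 (D6), 3942 (E1), 1231 (E2), 1879 (E3) and 2390 (E6), against 1412 in B7, and CD68 was the brightest marker in every clone. Of 8 hepatocyte markers, only ALB and APOA2 were measurable, and their summed level was 134 to 203 in the tolerant clones, against 570 in B7. APOA2 was at least 7.24-fold lower (adjusted p = 0.00142), while ALB differed by -0.008 ± 0.33 (not called). Of 6 fibroblast markers, COL1A1 and DCN were measurable, at a summed level of 164 to 408 in the tolerant clones, against 135 in B7. The part of these markers in the results was not tested.

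Among tested genes, the order on GRCh38.p14 showed 2 runs of neighbours with large differences. SAA4, SAA2 and SAA1 follow each other on chromosome 11, at least 6.99-fold, at least 3.01-fold and 7.07-fold higher in the mean of the tolerant clones than in B7. The nearest tested genes outside the run were SAAL1 (log2 difference -0.90) and HPS5 (0.28 ± 0.20). RefSeq also annotates a read-through gene that joins SAA2 and SAA4. C1S, C1R and C1RL follow each other on chromosome 12, at 15.0-fold, at least 2.30-fold and 4.55-fold, between LPCAT3 (log2 difference 0.71 ± 0.30) and RBP5 (0.10). CFB lay between ZBTB12 (-0.56 ± 0.23) and SKIC2 (0.68 ± 0.24), and CFD between PTBP1 (-0.77 ± 0.25) and MED16 (-0.20 ± 0.19). Within 3 tested genes of them, WHR1 near CFB (1.30 ± 0.24, adjusted p = 0.0456) and ARID3A near CFD (1.71 ± 0.24, adjusted p = 0.0210) were called higher, both named after their values were seen. C3 lay between TNFSF14 (0.42 ± 0.21) and GPR108 (0.56 ± 0.22), and CFI between PLA2G12A (-0.49 ± 0.21) and GAR1 (-0.62 ± 0.29). LCN2 had PTGES2 on one side (-0.01 ± 0.29) and BBLN on the other (1.19 ± 0.29, adjusted p = 0.0749). Of the nearest non-member neighbours named here, only SAA4 and C1RL were called.

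**Figure D5:**
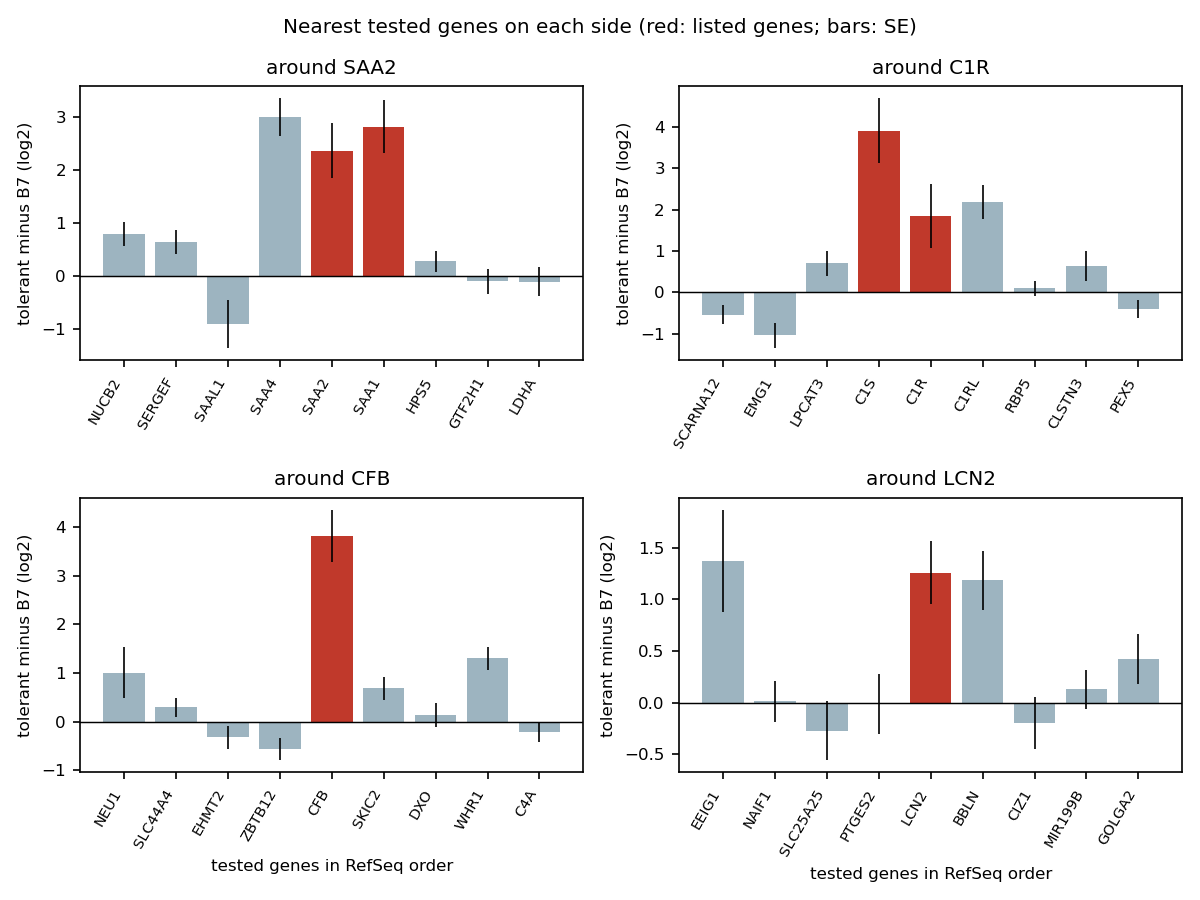
Mean log2 difference of the 5 tolerant clones from B7 for tested genes in RefSeq order around SAA2, C1R, CFB and LCN2, with bars for the standard error and members of the 9 genes in red. SAA4, SAA2 and SAA1 stand together, as do C1S, C1R and C1RL; the bars of SAA4, SAA2 and C1R are measured values against a B7 signal below detection.

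The genes whose level profile over the 6 clone means lay nearest to a member were found by the root mean square difference of the centred log2 values, as a description. For CFD they were PLAAT4 at 0.43, RARRES1 at 0.71, MUC1 at 0.72 and IGFBP3 at 0.73. For SAA1 they were AMOT at 0.19, SAA4 at 0.26, LRMDA at 0.30 and BAMBI at 0.30. For C3 they were IRF9, PLK2, KCND2 and CALCOCO1 at 0.13 to 0.14, and for LCN2 TSPAN6, ZFP36L1, BIK and PTPN20 at 0.07 to 0.10. A small difference is easier to reach for C3 and LCN2, whose own range is narrow, than for CFD. Among the members, over the 5 tolerant clones, the nearest pairs were CFI with LCN2 at 0.20, C1R with C1S at 0.22 and SAA1 with SAA2 at 0.34. CFI and LCN2 had the narrowest ranges of the 9 genes among these clones, 1.86-fold and 1.79-fold. A small difference is therefore easier to reach for them than for C1R and C1S, with measured ranges of 4.53-fold and 4.72-fold.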

How the data were processed

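Gene expression was measured on 12 Illumina bead arrays of 6 PC9 clones, 2 arrays per clone. The deposited non-normalized file holds scanner intensity on a linear scale, with background already subtracted, since values below 0 occur. Its detection p-value columns are empty (0 cells filled). The authors' normalized values are linear intensity with a floor of 20, and how they were normalized is not given in the sources used here.

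From the scanner intensity, normexp correction (offset 16), quantile normalization and log2 were run with limma 3.58.1 in R 4.3.3. The noise of an array was estimated from its values below 0 (their root mean square), and the detection limit (1-sided normal p of 0.01) was 20.1 to 24.1 intensity units. Probes above it on both arrays of at least 1 clone were kept (21912), and the brightest kept probe stood for each of 12250 genes. The platform annotation pairs 30112 probes with 1 gene, 8 with several and 17109 with none, and 99.9% of those with 1 gene matched a RefSeq gene ID.

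Tolerant clones were compared with B7 by limma on 6 clone means (4 residual degrees of freedom), and the spread of the single B7 mean was taken to equal that of the tolerant ones. The tolerant clones were compared among themselves in 1 limma fit of the 12 arrays (6 residual degrees of freedom), by a moderated F test, each clone against the other 4, and by pairs. Tests were 2-sided, with Benjamini-Hochberg adjustment over 12250 genes within each comparison, and an adjusted p under 0.05 was called. A probe under the limit on all arrays of a side gives a fold of at least N, where a dim array enters at its own value or at the lowest detected value on it, whichever is higher. That fold is for the mean over the clones of a side and not for each clone. The tests were checked on simulated data. Precision is limited by how few arrays and clones there are.

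The members and lists were chosen with earlier results of these data known. Named are all member probes, up to 4 called genes of each list, the 4 nearest profiles for CFD, C3, SAA1 and LCN2, and each member's nearest tested neighbours. Exceptions are stated where they occur. Alternatives were no background correction, an offset of 50, median scaling, no filter on dim probes, the authors' values, averaging over the probes of a gene, a block for replicate number, a random block for clone, a fit without B7, and each array or tolerant clone left out. Samples of the same replicate number in different clones did not deviate together (correlations of -0.02 to 0.05 over 15 pairs of clones).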

Additional observations from a re-analysis of the deposited data

How the results depend on the processing

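All 9 genes differed among the tolerant clones in each of the 25 alternatives, and the acute phase list kept its count of 1. Calls of a single clone numbered 32 of 45, and 28 to 33 of 45 in the 20 alternatives with all tolerant clones, and 23 to 28 of 36 in the 5 that left out a tolerant clone. Over all tested genes in the main fit, the shares called higher and lower were 18.2% and 19.8% (D6), 24.0% and 22.3% (E1), 26.4% and 26.8% (E2), 15.5% and 16.3% (E3), and 16.5% and 16.4% (E6). The median difference of the 9 genes from B7, which is that of SAA2, dim in B7, was 2.37, against 3.15 with no background correction, 1.66 with an offset of 50, 3.0 in the authors' values and 2.06 to 2.67 when an array or clone was left out. Median scaling moved the median of all genes by 0.14. The complement list had 1 called gene, and 0 with an offset of 50 or in the authors' values. It had 2 with the clone as a random block over arrays, with or without the replicate block added. In the leave-one-out fits it had 0 to 3 (0 without D6, E1, E3, E6 or 1 E2 array, and 3 without E2). The signalling list had 6, 3 with no background correction or in the authors' values, and 2 to 11 in the leave-one-out fits. It had 11 with the random block over arrays, and 12 with the replicate block added to that. The list of SAA and lipocalin partners had 1, and 2 with no background correction or in the authors' values, and 0 to 3 in the leave-one-out fits. The share of all tested genes called higher against B7 moved too: 1.40% in the main fit, 8.56% without E2 and 0.261% without E6. It was 8.09% with the random block over arrays, and 7.40% with the replicate block added to that. With no background correction it was 1.19%, with an offset of 50 1.16%, and in the authors' values 0.906%. Changes in the list counts are therefore not read as a property of these lists. The replicate numbers do not pair the samples (correlations of -0.02 to 0.05). Called clone differences that turned round were CFD in D6 (-0.39 without E2, -0.39 to 0.80 over the leave-one-out fits), CFD in E1 (-0.19 without E2, -0.19 to 1.01), C1S in E6 (-0.088 without E2, -0.088 to 0.66) and SAA1 in E6 (-0.052 without D6, -0.052 to 0.43). The cause of these changes was not tested, and the leave-one-out fits also hold fewer samples. Signal close to background limits CFD, C1R and SAA2 in B7 and C1R in E2, and the single sensitive clone limits every comparison with B7.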
